A study of Xenopus tropicalis with 8 samples.

Results

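Mitochondria burn fuel through a chain of protein complexes in the inner membrane, numbered I to IV, which pass electrons to oxygen and drive ATP synthesis. Most of their proteins are made in the cytosol and brought in by translocases of the outer membrane (TOM) and inner membrane (TIM). The few encoded by mitochondrial DNA are made inside by a dedicated ribosome, whose proteins carry the gene prefixes mrpl (large subunit) and mrps (small subunit), and calcium uptake by the uniporter channel is gated by MICU proteins. In the testis, the cholesterol side chain is cut inside mitochondria as a first step of steroid synthesis, and developing germ cells rely on mitochondrial respiration.

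The genes described here were chosen by symbol stem (nduf, cox followed by a digit, uqcr, atp5, sdh, timm, tomm, mrpl, mrps and micu), a rule that was written with earlier results of these data known. The reference gene table of Xenopus tropicalis holds 200 genes of these stems, of which 45 were named on a probe and 37 were kept, because Feature Extraction had marked their probe as well above background on 3 or more arrays within finasteride or within control. All 37 were among 3844 named genes tested, and 34 of them were well above background on all 8 arrays.

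The testes came from juvenile males of the frog Xenopus (Silurana) tropicalis. Pieces were kept for 6 h at 26 °C in L-15 medium, either with finasteride (5 µM), which blocks 5-alpha-reductase, or without it (0 µM, control). Each group was read on 4 one-colour Agilent arrays, although the design text gives 8 samples per arm. Whether an array holds 1 animal or a pool is not given, so the spread behind each p-value is that between arrays and may be technical.

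The share of probes well above background was 70.5% to 86.9% on finasteride arrays and 73.3% to 77.2% on control arrays. The 75th percentile of processed intensity, which scales each array, was 896 to 1798 on finasteride arrays and 719 to 1686 on control arrays. Few markers of testis cells could be read. The germ cell genes piwil1 and hormad1 were well above background on all 8 arrays, as were dnai2, hydin, spata4 and spata6 (axonemal and spermatid). So were ar, cldn11 and krt18.2, listed for Sertoli cells, and star, cyp21a2.1, fdx1 and por, listed for Leydig cells. The leukocyte genes laptm5 and mpo were too. Of 3 matched germ cell genes 2 passed the filter, and of 4 matched Sertoli cell genes 3 did. Only genes passing it were read, so their detection was no test of tissue origin. None of the marker genes passed in limma. Groups did not overlap for krt18.2 (0.69 higher with finasteride on the log2 scale), for spata6 and for epb41 (1.26), listed for erythrocytes. These were 1 of 3 tested Sertoli cell genes, 1 of 4 spermatid and flagellum genes and 1 of 3 erythrocyte genes. For germ cells (2 tested), Leydig cells (4) and leukocytes (3) there were 0. Over all named genes the share was 1.98% (1.15% in the higher direction). For spata6, values were -2.16, -2.39, 0.25 and -1.89 on finasteride arrays and -2.60 to -2.53 on control arrays, with finasteride 3 apart. The epb41 probe, named xhyb in the array design, was well above background on 4 finasteride arrays and 1 control array. Of the other tested erythrocyte genes, sptb differed by -0.62 and slc4a1 by -0.72, and their groups overlapped. Linear levels summed over each list, in multiples of the 75th percentile, were 12.2 to 19.7 on finasteride arrays and 12.4 to 18.5 on control arrays for germ cells, and 13.7 to 15.3 with finasteride and 12.5 to 14.9 in controls for spermatid and flagellum genes. They were 1.36 to 2.31 with finasteride and 1.23 to 1.66 in controls for Sertoli cells, and 3.95 to 4.37 with finasteride and 3.95 to 4.65 in controls for Leydig cells. For erythrocytes (epb41, sptb, slc4a1) they were 0.139 to 0.213 on finasteride arrays and 0.112 to 0.749 on control arrays, and for leukocytes (cd74, laptm5, mpo) 8.81 to 11.2 on finasteride arrays and 9.77 to 11.4 on control arrays. The brightest gene weighs most in such a sum. Mean log2 levels with finasteride were 3.76 for hormad1 and 0.44 for piwil1. They were 3.19 for laptm5, on an xhyb probe, -0.86 for mpo and -5.37 for cd74. Among erythrocyte genes, slc4a1 stood at -0.75 on control 4, against -4.94 to -3.30 on the other control arrays. The part of these cell types in the results below was not tested. In such bulk tissue, fewer cells of a type and less RNA per cell cannot be told apart. All levels below are log2 processed intensity minus the array's 75th percentile, so that 0 is that percentile, and all differences are finasteride minus control on the log2 scale.

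Whether finasteride moved the mitochondrial genes was tested in limma over all 25652 probes passing the same filter. None of the 37 genes passed an adjusted p of 0.05, and neither did any probe on the array (0% in either direction). At an unadjusted p under 0.05 there was 1 of 37 genes, micu2, against 3.36% of all named genes and 4% of all probes (2.28% in the higher direction). It was also the 1 gene whose groups did not overlap, which held for 1.98% of named genes (1.15% in the higher and 0.834% in the lower direction) and 2.08% of probes. Values were higher with finasteride for 23 genes and lower for 14, with a median difference of 0.063 beside 0.0060 over all named genes. That median was -0.030, with 15 genes higher, without finasteride 1, and 0.11, with 25 higher, without finasteride 3.

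The sizes were small for most genes. The difference lay within 0.25 in either direction for 29 of the 37 genes (78.4%), beside 74.6% of all named genes. For 30 genes (81.1%) the whole 95% interval lay inside a 2-fold change, beside 84.9% of all named genes. For 22 it lay inside a 1.5-fold change, beside 1537 of the 3844 named genes. Among the 7 whose intervals reached past 2-fold were ndufs1, ndufaf6, tomm40l, mrpl55, mrps31 and micu2. In the array design the probes of ndufs1, ndufaf6, mrpl55 and mrps31 were named xhyb, and those of tomm40l and micu2 specific.

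**Figure D1:**
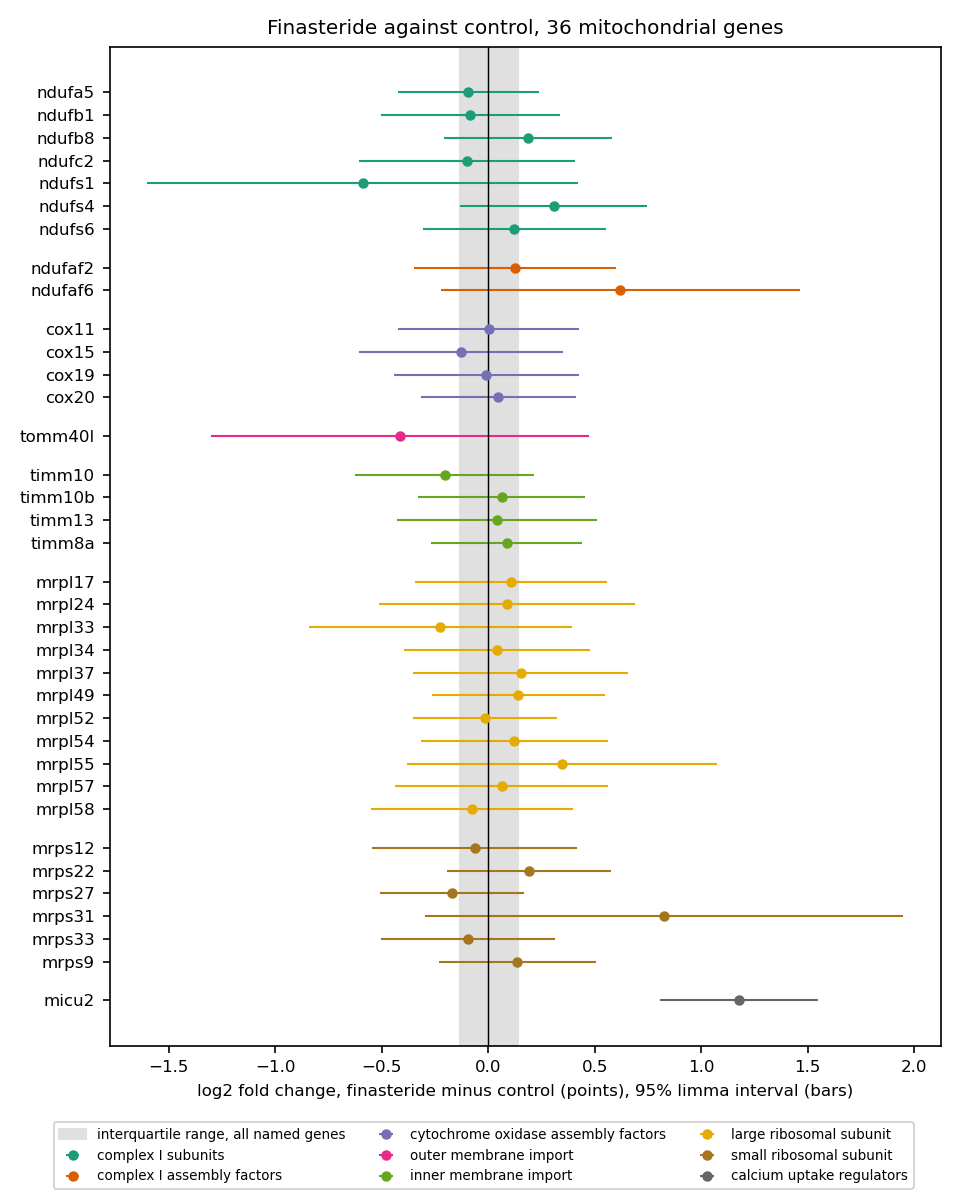
Log2 fold change, finasteride minus control, of 36 of the 37 genes (points) with its 95% limma interval (bars), grouped by role, and the interquartile range of all 3844 named genes as a grey band. The interval of micu2, from 0.80 to 1.55, is the one that excludes 0.

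Complex I takes electrons from NADH, and 7 of its 36 subunit genes in the reference were read. Values were higher for 3 and lower for 4, with a median difference of -0.084, which was 0.042 without finasteride 3, 0.015 without finasteride 4, 0.059 without control 1 and 0.16 within slide 2. NDUFS1 is an iron-sulfur core subunit of the arm that oxidises NADH. Its gene ndufs1 stood at -4.08, -2.92, -2.98 and -3.60 on finasteride arrays 1 to 4, against -3.01, -2.32, -4.05 and -1.85 on control arrays 1 to 4. The controls alone spanned 2.20, so the groups overlapped and the difference of -0.59 (95% interval -1.60 to 0.42, limma adjusted p = 1.00) was smaller than the spread within controls. It was -0.27 without control 4 and -1.004 without control 3, and with normexp background correction, where the median of all probes was 0.23, it was 0.43.

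The accessory subunit gene ndufs4, whose product stabilises the same arm, was read by 2 probes that differed in sign. On the brighter probe, named xhyb in the array design, finasteride arrays stood at -0.06, -0.28, 0.35 and -0.50, against -0.38, -0.39, -0.46 and -0.50 on control arrays. The controls were closely grouped, and finasteride 3 was the highest array. The difference there was 0.31 (-0.13 to 0.75), beside -0.22 (-0.67 to 0.22) on the probe named specific, with a limma adjusted p of 1.00 for both. On the xhyb probe it was 0.15 without finasteride 3. The accessory subunit gene ndufa5 was bounded most closely of the group, at -0.09 (-0.43 to 0.24), with finasteride values of 2.99 to 3.30 and control values from 3.14 to 3.31. The other 4 subunit genes, ndufb1, ndufb8, ndufc2 and ndufs6, differed by -0.10 to 0.19.

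Assembly factors of complex I help to put the subunits together and do not stay in the finished enzyme. For ndufaf6, values were -2.10, -3.36, -2.06 and -2.05 on finasteride arrays and -2.67, -3.88, -2.47 and -3.03 on control arrays. Replicate 2 was the lowest array of both groups, and the other 3 finasteride arrays lay above every control. The difference was 0.62 (-0.22 to 1.46, limma adjusted p = 1.00), which was 1.23 within slide 1 and 0.015 within slide 2. It was 0.94 without finasteride 2 and 0.33 without control 2. The second factor, ndufaf2, stood at 1.96 ± 0.38 with finasteride and 1.84 ± 0.19 in controls (SD, n = 4 each), a difference of 0.12 (-0.35 to 0.60).

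Cytochrome oxidase, complex IV, was represented by 4 assembly factors and no tested subunit. The 4 differences were within 0.13 of 0. The heme A synthase gene cox15 stood at 2.31, 1.54, 1.35 and 1.71 on finasteride arrays and at 1.89, 1.71, 1.85 and 1.98 on control arrays. Its finasteride values bracketed the controls, with finasteride 1 highest and finasteride 3 lowest of all arrays, and the difference was -0.13 (-0.61 to 0.35), or -0.32 without finasteride 1 and -0.00056 without finasteride 3. For cox20, which encodes a chaperone of a mitochondrially encoded subunit, it was 0.05 (-0.32 to 0.41). The copper delivery genes cox11 and cox19 differed by 0.0012 and -0.0087.

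Protein import was covered unevenly. From the outer membrane, tomm40l, a relative of the TOM channel gene, was tested, at -4.80, -4.98, -4.67 and -6.59 on finasteride arrays and -4.56, -5.01, -4.59 and -5.21 on control arrays. It was well above background on 3 finasteride arrays and 4 control arrays. Finasteride 4 stood apart, and the other finasteride values lay within the control range. The difference of -0.42 (-1.30 to 0.47, limma adjusted p = 1.00) was 0.028 without that array, 0.013 within slide 2, and 0.75 with normexp.

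All 4 tested inner membrane import genes encode small TIM chaperones, which carry membrane proteins across the space between the membranes. Values were higher for 3 and lower for 1. The lower one, timm10, had 0.13, 0.52, 0.18 and 0.57 on finasteride arrays and 0.41, 0.36, 0.92 and 0.53 on control arrays, which overlapped. Its difference was -0.21 (-0.63 to 0.22), or -0.083 without control 3, -0.010 within slide 1 and -0.40 within slide 2. For timm8a, whose product pairs with that of timm13, it was 0.09 (-0.27 to 0.44), and timm13 and timm10b differed by 0.04 and 0.06.

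The mitochondrial ribosome gave the largest group, with 11 tested genes of the large subunit and 6 of the small subunit. Of the large-subunit genes 8 had higher and 3 lower values, with a median difference of 0.087, which was -0.0076 without finasteride 1 and -0.024 within slide 1. The gene mrpl55 stood at -2.82, -3.50, -4.33 and -4.26 on finasteride arrays and -4.20, -4.13, -4.27 and -3.69 on control arrays. Finasteride 1 and 2 lay above every control and finasteride 3 and 4 did not. The difference of 0.35 (-0.38 to 1.07, limma adjusted p = 1.00) was 0.043 without finasteride 1.

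Among the others, mrpl33 stood at 2.36, 1.06, 1.16 and 1.64 on finasteride arrays and 1.96, 1.85, 1.54 and 1.76 on control arrays. Finasteride 1 again stood above the controls and finasteride 2 and 3 below them, with a difference of -0.23 (-0.84 to 0.39), or -0.49 without finasteride 1, -0.061 without finasteride 2 and -0.094 without finasteride 3. The gene mrpl52 had the narrowest interval of the large subunit, -0.01 (-0.35 to 0.32). The other 8 large-subunit genes differed by -0.08 to 0.15, among them mrpl58, whose product releases peptides from stalled ribosomes.

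In the small subunit 3 genes had higher and 3 lower values, with a median difference of 0.036. It was -0.016 without finasteride 1, 0.097 without finasteride 3, 0.12 within slide 2 and -0.065 over genes well above background on all 8 arrays. The probe of mrps31 was well above background on 3 finasteride arrays and 1 control array. It read -5.05, -6.23, -4.78 and -4.77 on finasteride arrays and -5.68, -6.27, -4.88 and -7.30 on control arrays. The groups overlapped, control 4 was the lowest array, and the difference of 0.83 (-0.30 to 1.95, limma adjusted p = 1.00) was 0.40 without it and 1.21 without control 3. The gene mrps27 was bounded most closely, at -0.17 (-0.51 to 0.17), with -0.63 to -0.38 on finasteride arrays and -0.54 to -0.19 on control arrays. The other 4, mrps9, mrps12, mrps22 and mrps33, differed by -0.10 to 0.19.

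Calcium uptake was represented by micu2, whose product helps to keep the uniporter channel closed at low calcium. The gene micu2 read -3.47, -3.61, -3.36 and -3.28 on finasteride arrays, against -4.63, -4.75, -4.30 and -4.75 on control arrays. Every finasteride value lay above every control, and both groups were tight, with means of -3.43 ± 0.14 with finasteride and -4.61 ± 0.21 in controls (SD, n = 4 each).

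The difference for micu2 of 1.18 (0.80 to 1.55), which is 2.26-fold, had the lowest unadjusted p of the 3844 named genes and the third lowest of all probes, and yet a limma adjusted p of 0.266. The probe was named specific and was well above background on all 8 arrays. The difference was 1.37 within slide 1 and 0.98 within slide 2, where the sign follows from the groups not overlapping. It ran from 1.13 without finasteride 4 to 1.28 without control 3. Its limma adjusted p, over all the alternatives run, lay between 0.0891 and 1.00, so that no alternative brought it past the threshold. The lower end came without control 3, the highest of its controls. Values at the upper end came with control 1, control 2 or control 4 left out, with normexp and within slide 2.

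The gene smdt1, which encodes a small subunit of the uniporter and was not chosen by the stems, differed by 0.20 (-0.19 to 0.58). The difference between micu2 and smdt1 was not tested.

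**Figure D2:**
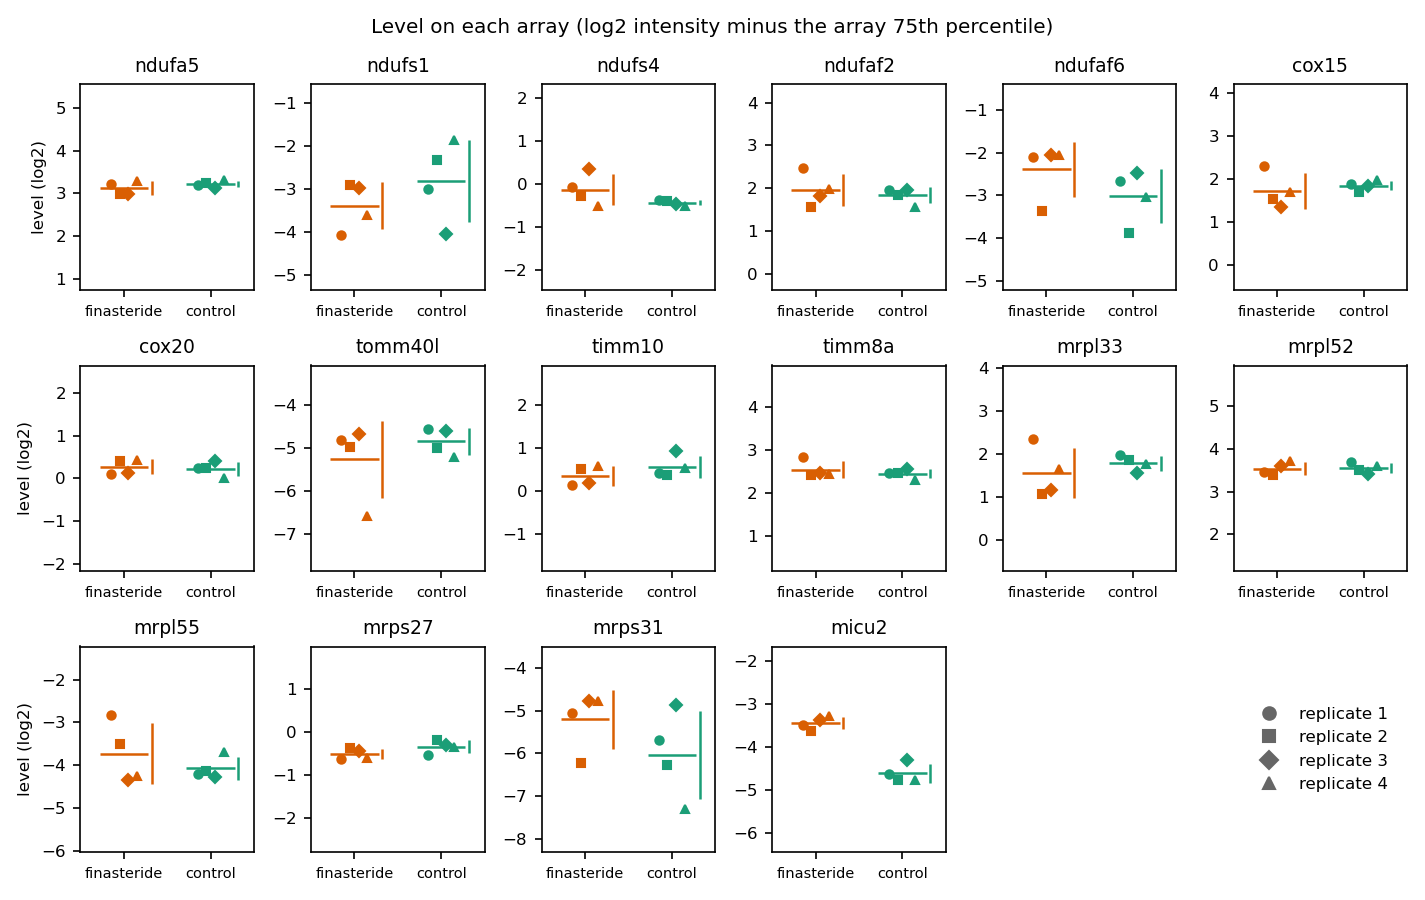
Level on each array of 16 genes named by rule, as log2 processed intensity minus the array's 75th percentile. Finasteride is on the left and control on the right of each panel, marker shapes are replicate numbers, horizontal lines are group means and vertical lines are ± 1 SD (n = 4), and every panel spans the same range. Of the 16, micu2 alone has groups that do not overlap.

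The 8 genes with a matched probe that did not pass the filter were uqcr10 of complex III, the oxidase subunit gene cox7a1, tomm5 and tomm22 of the outer membrane, mrpl19, and mrps14, mrps18b and mrps23. Of these, cox7a1 was well above background on 2 finasteride arrays and 0 control arrays, and mrps23 on 2 finasteride arrays and 1 control array. The other 6 were above background to that degree on 0 arrays. Of ATP synthase and complex II, no gene of the 16 and 8 in the reference was named on a probe, so these complexes were not analysed here.

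Both groups lay on each of the 2 slides, so the difference could be read within each. These readings divide the same 8 arrays and are not a separate check, and the signs were not counted over all named genes. Within slide 1 and within slide 2, each with 2 arrays a group, 14 genes were higher in both, 6 were lower in both and 17 were of opposite sign. The median difference of the 37 genes was -0.0079 within slide 1 and 0.12 within slide 2, beside 0.045 and -0.023 over all named genes. In a fit with group as a covariate, 0 of the 37 genes passed an adjusted p of 0.05 between the slides in limma, where 0% of all probes did. At an unadjusted p under 0.05 there was 1, mrpl55, at 0.66 higher on slide 2, against 1.91% of all probes. Array positions 2 and 4 held only finasteride and positions 1 and 3 only controls, and treatment and position cannot be told apart.

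**Figure D3:**
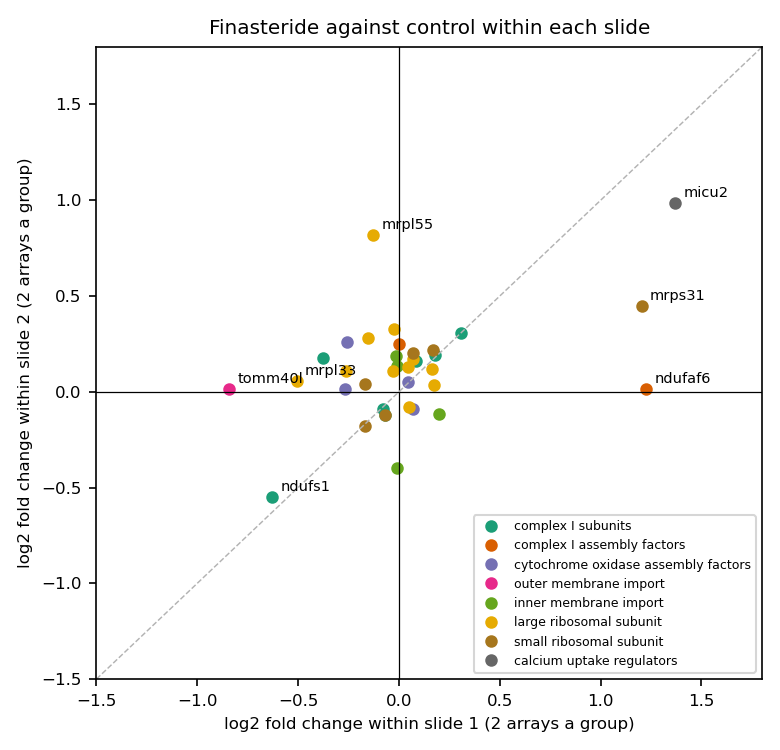
Log2 fold change, finasteride minus control, within slide 1 (horizontal) and within slide 2 (vertical) for 36 of the 37 genes, coloured by role, with 2 arrays per group in each. The genes past 0.5 on either axis are labelled, and micu2 lies at 1.37 and 0.98.

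The arrays differed more within the finasteride group than within the controls. The median SD of the 37 genes was 0.34 over finasteride arrays and 0.17 over control arrays, and the SD was larger with finasteride for 29 of them (78.4%). Over all named genes the median SD was 0.35 with finasteride and 0.22 in controls, and it was larger with finasteride for 74.0%. For the large ribosomal subunit it was 0.37 with finasteride and 0.15 in controls, and larger with finasteride for 10 of 11 genes. Its gene mrpl54 read 2.11, 1.52, 1.34 and 1.98 on finasteride arrays, against 1.59, 1.59, 1.62 and 1.67 on control arrays, with all controls inside the finasteride range.

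Median deviations on finasteride 1 and 3 had opposite signs in 4 of the 5 role groups of at least 4 genes. On finasteride 1, 28 of the 37 genes stood above their own mean over the 8 arrays, with a median deviation of 0.25. On finasteride 3, 12 did, with a median of -0.11, and on control 2 also 12, with a median of -0.085. The counts were 14 on finasteride 2, 20 on finasteride 4, and 15, 14 and 20 on controls 1, 3 and 4. For the large ribosomal subunit the median deviation was 0.39 on finasteride 1 and -0.34 on finasteride 3. Complex I subunits (0.22 and -0.06), oxidase assembly factors (0.25 and -0.39) and the small ribosomal subunit (0.23 and -0.07) had the same signs, and inner membrane import had -0.02 and -0.15. Within the large subunit, mrpl24 (-0.38 and 0.54), mrpl49 (-0.055 and 0.47) and mrpl52 (-0.077 and 0.058) went the other way. All named genes had -0.02 on finasteride 1 and 0.08 on finasteride 3, medians in which opposite signs cancel. Their median absolute deviation was larger on these arrays (0.30 and 0.27) than on the other arrays (0.12 to 0.24). For the 37 genes it was 0.39 and 0.34. On finasteride 1, 25.2% of named genes were lowest and 17.6% highest of all arrays. On finasteride 3, 23.0% were highest and 14.6% lowest. Within controls, the median deviation of the 37 genes ran from -0.09 to 0.03. For complex I subunits, finasteride 2 (-0.12) and control 2 (-0.11) lay below finasteride 3. The same held for the small ribosomal subunit (-0.12 on finasteride 2 and -0.10 on control 2). For the large ribosomal subunit and oxidase assembly factors, finasteride 3 was the lowest array.

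Gene by gene, 9 of the 37 were highest of all 8 arrays on finasteride 1 and lowest on finasteride 3 (24.3%), as were 4.87% of all named genes. They were mrpl17, mrpl37, mrpl54, mrpl55, mrpl57, mrps12, ndufs6, cox11 and cox15. In mrpl57, values were 3.55, 2.90, 2.50 and 3.07 on finasteride arrays and 3.11, 2.77, 2.88 and 3.00 on control arrays. In mrpl37, they were 2.57, 1.87, 1.49 and 2.16 on finasteride arrays and 1.92, 1.78, 1.81 and 1.98 on control arrays. Both had finasteride values on either side of all controls.

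The 2 arrays also differed in other ways. Finasteride 1 lay on slide 2 and finasteride 3 on slide 1, both at position 4. The large-subunit median deviation was -0.075 on finasteride 2, also on slide 2, and 0.10 on finasteride 4, also on slide 1. It was -0.12 and 0.043 on controls 3 and 4 of slide 2, and -0.031 and -0.077 on controls 1 and 2 of slide 1. The part of the slide in the contrast of the 2 arrays was not tested. The 75th percentile was 896 on finasteride 1 and 1664 on finasteride 3, and the share of probes well above background was 78.0% on finasteride 1 and 86.9% on finasteride 3. Median deviations of the marker lists on finasteride 1 and 3 were -0.33 and 0.40 for germ cells (2 genes), 0.08 and -0.04 for spermatid and flagellum (4), -0.06 and 0.14 for Sertoli cells (3), -0.35 and 0.28 for Leydig cells (4), 0.20 and 0.77 for erythrocytes (3) and 0.13 and -0.14 for leukocytes (3). Their part in the pattern was not tested. This pattern was noticed after the values were seen, and the comparison of those arrays has no replicate check. With normexp the arrays of lowest large-subunit values were control 4 (-1.06) and finasteride 4 (-0.50), not finasteride 3 (-0.23). In that setting the median deviation of all named genes also shifted between arrays. It was 1.00 on control 4, 0.92 on finasteride 4, 0.43 on finasteride 3 and -0.04 on finasteride 1. The part of this shift in the large-subunit values was not tested. Without finasteride 1 and 3 the median difference of the 37 genes was 0.0048, and in limma 0 of them passed, beside 1 probe higher and 2 lower of all tested, with micu2 at 1.16 (adjusted p = 0.312).

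**Figure D4:**
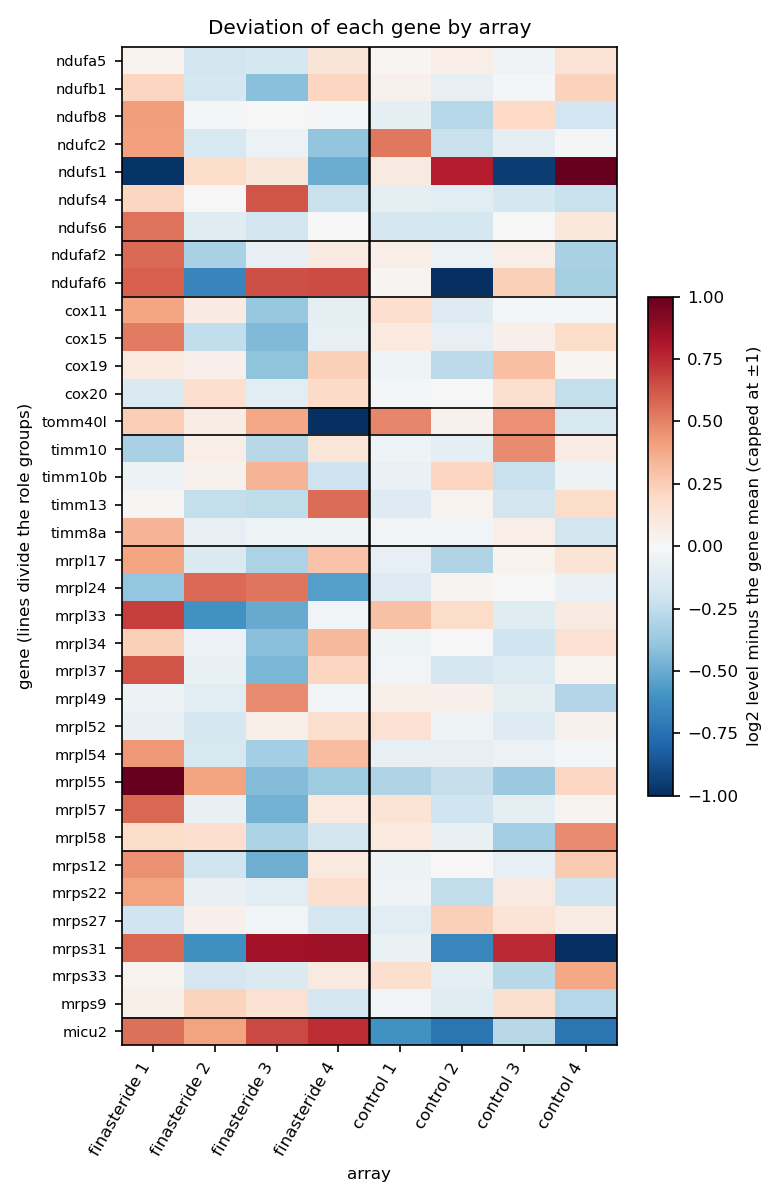
Deviation of 36 of the 37 genes on each array from its own mean over the 8 arrays, on the log2 scale and capped at ±1, with finasteride arrays on the left. The column of finasteride 1 is mostly red (28 of all 37 genes above their mean). That of finasteride 3 is mostly blue (12 above), a count that control 2 shares.

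**Figure D5:**
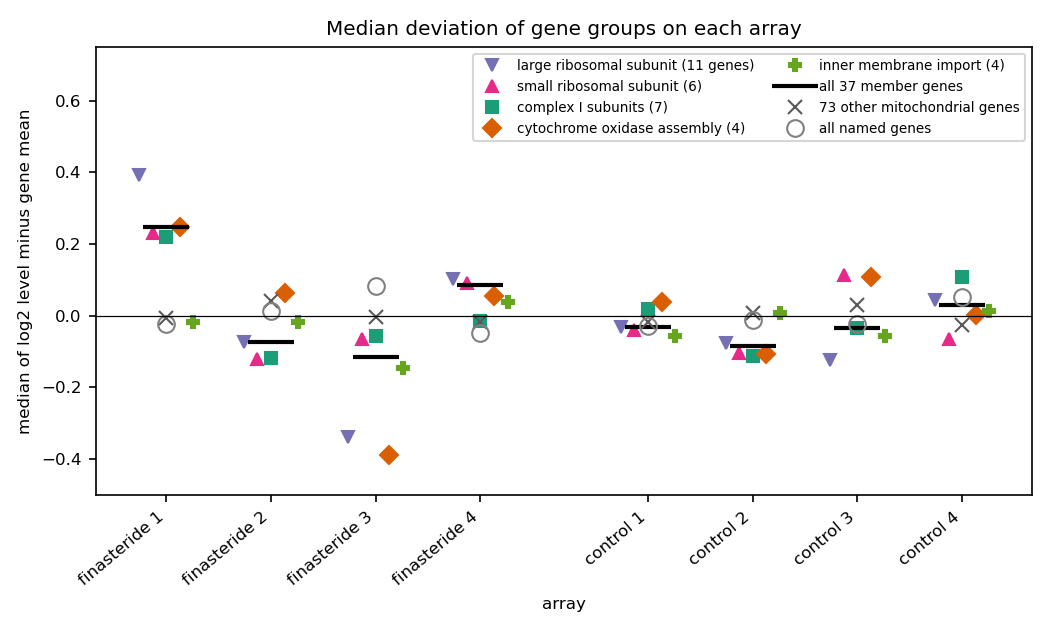
Median deviation from the gene mean on each array for the 5 role groups of at least 4 genes, for the 37 genes, for 73 other mitochondrial genes and for all 3844 named genes. The large ribosomal subunit stands at 0.39 on finasteride 1 and -0.34 on finasteride 3, where the 73 other mitochondrial genes stand at -0.0059 and -0.0044. The 73 pool function lists whose medians on these arrays differ in sign.

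Other genes of the same organelle, listed by function and not by stem, were set beside these. Of 73 tested, 40 had higher and 33 lower values with finasteride, 0 passed in limma over all probes and 0 had an unadjusted p under 0.05, with a median difference of 0.017. On finasteride 1 and finasteride 3, 36 and 36 of the 73 stood above their own mean. By list, median deviations on finasteride 1 and 3 were -0.038 and 0.12 for mitochondrial gene expression (33 genes). They were -0.011 and -0.0044 for assembly and electron carriers (13), and 0.14 and -0.12 for import and processing (11). Calcium, carriers and membrane shape (8) had 0.16 and -0.017, and biogenesis regulators (5) had 0.010 and -0.18. The citrate cycle genes (3) had 0.35 and -0.053. The factor genes of mitochondrial gene expression were 33 of the 73, 18 higher and 15 lower (median difference 0.017). Among them tfam, which packages mitochondrial DNA, differed by -0.34 (-0.73 to 0.05) and polg, the catalytic subunit of the DNA polymerase, by 0.31 (-0.07 to 0.69).

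In the remaining lists, too, no gene passed. Of 13 genes for assembly and electron carriers 7 were higher (median 0.014), with coa5 at -0.29 (-0.86 to 0.28) and ttc19, a complex III factor, at 0.14 (-0.17 to 0.44). Of 11 import and processing genes 7 were higher (0.060), with mtx3 of the outer membrane at -0.39 (-0.88 to 0.09) and the peptidase gene mipep at -0.30 (-0.69 to 0.09). Of 8 genes for calcium, carriers and membrane shape 5 were higher (0.056), with the iron carrier slc25a37 at -0.38 (-0.81 to 0.06) and ucp3, an uncoupling protein gene, at 0.25 (-0.11 to 0.61). Of 5 regulators of biogenesis 1 was higher (-0.08), with ppard at -0.31 (-0.74 to 0.12) and nrf1 at 0.23 (-0.21 to 0.66). Of 3 citrate cycle genes 2 were higher (0.058), with ogdhl at 0.30 (-0.23 to 0.83) and dld at -0.09 (-0.57 to 0.40). No antioxidant gene of the 11 listed was named on a probe.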

How the data were processed

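The deposited intensity of each spot came from Agilent's Feature Extraction software (10.7.1.1), and the array design uses build JGI 4.1, both per the file headers. No source used here states its background correction. The authors' deposited table of the series holds log2 values, which differed by at most 0.0010 from a quantile normalization of log2 processed intensity over all spots (column medians 7.25). Flags for outlier, saturated and well-above-background spots were used as deposited.

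Here, control and outlier spots were left out, spots of a probe (at most 2) were averaged on the log2 scale, and each array's 75th percentile was subtracted. Of 32899 probes, 5891 matched a RefSeq transcript in the gene table (UCB_Xtro_10.0, used for names only), and 4872 had a gene symbol. Each gene was read from its brightest probe. Of the 37 kept, 23 probes were named specific and 14 xhyb, and whether xhyb probes read other genes was not tested. The comparison used limma 3.58.1 under R 4.3.3, with moderated two-sided tests from lmFit and eBayes and Benjamini-Hochberg adjustment over 25652 probes. The number of arrays limits the precision. Intervals are 95% and not adjusted for the choice of genes. Genes were named if groups did not overlap, if among the 2 lowest p of a role group, if detection differed between groups, or if the interval was the narrowest of a role group, and up to 2 of lowest p were named per list of other mitochondrial genes. Members and lists were chosen with earlier results of these data known. Same-numbered arrays' deviations correlated at 0.30, 0.36, -0.06 and -0.03. The best-correlated control was the same-numbered one for replicates 1 and 2 but not for 3 and 4. These values do not settle whether numbers pair samples, and the main fit took no pairs. Alternatives covered background, scaling, the authors' table, filters, slide, replicate number, probe choice and each array left out. Of the set, 1 gene is counted in the totals and is not reported here.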

Additional observations from a re-analysis of the deposited data

Results flagged for a closer look

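Of 74 groups of 4 values tested for an array far from the others, 5 held one, all among finasteride arrays. Chance gives about 1 in 20, which is 3.7 over all 74 groups, control groups included. The share over all named genes is not given here, so whether such arrays are particular to these genes was not tested. For the complex I subunit gene ndufb8, finasteride 1 read -0.90, and the remaining finasteride arrays lay between -1.34 and -1.32. For the small TIM chaperone gene timm8a, finasteride 1 read 2.83, and the others lay between 2.41 and 2.45. For ndufaf6, finasteride 2 stood at -3.36 against -2.10 to -2.05. For mrpl49, finasteride 3 stood at -2.50 against -3.08 to -3.01, and for tomm40l, finasteride 4 stood at -6.59 against -4.98 to -4.67.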

How the results depend on the processing

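Of the mitochondrial genes fitted, none passed under any of the 12 alternatives or with any 1 array left out. All 37 were fitted except with probes well above background on all 8 arrays (34), only specific probes (24) and no filter (45). Over all probes, 1 passed as higher in slide 2 alone. Leaving out single arrays gave 0 to 2 higher and 0 to 6 lower, the most without finasteride 2 (2 higher) and control 3 (6 lower). With normexp, run on median signals, the median of all probes was 0.23, that of complex I subunits was 0.12, and ndufs1 (0.43), tomm40l (0.75), mrpl52 (0.12), mrps27 (0.0054) and cox20 (-0.053) changed sign. Complex I subunits stood at 0.16 within slide 2. With 1 array left out their median ran from -0.12 to 0.059, and that of inner membrane import from -0.012 to 0.093. The sign of mrpl52 also turned with quantile normalization (0.00078), median centring (0.0072), the authors' deposited table (0.0043) and within slide 1 (0.051), where ndufaf2 (-0.00013), timm8a (-0.016) and mrpl55 (-0.13) turned too. Within slide 2, cox15 (0.013), tomm40l (0.013) and mrpl33 (0.056) turned, and with only specific probes ndufs4 (-0.22) did. With 1 array left out, ndufaf2 ran from -0.044 to 0.25, cox20 from -0.025 to 0.11, tomm40l from -0.61 to 0.028, timm8a from -0.011 to 0.13 and mrpl52 from -0.070 to 0.039. For ndufs4 another probe was read, and for the others the cause was not tested. The deviations of large-subunit genes kept their signs on finasteride 1 (0.28 to 0.49) and finasteride 3 (-0.45 to -0.23) under 4 other settings. These were normexp, quantile normalization, median centring and the authors' table, which is close to a quantile normalization and so no separate setting. With normexp, finasteride 2 (0.26) and controls 1 to 3 (0.24 to 0.30) stood above 0 as well. All named genes had median deviations of -0.55 to -0.43 on those arrays in that setting. These readings were added after seeing the data, as was leaving out both finasteride 1 and 3. With the replicate block, 0 probes passed, micu2 had an adjusted p of 0.655, and it changed no call.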
